A study of Mus musculus with 8 samples.

Results

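GABA-A receptor subunits are described here through 7 genes, Gabra2, Gabra3, Gabra4, Gabra5, Gabrb1, Gabrb2 and Gabrd, in the hippocampus of mice that lack the tyrosine kinase Pyk2 or carry it without its autophosphorylation site. The genes were taken by name, through the gene symbol in the control tables and the Entrez identifier in the mutant tables. All 7 were found among the 17705 genes matched between these tables, and all 7 were tested. RNA-seq was available for 8 hippocampal libraries of C57BL/6 mice in 4 groups of 2. The groups were CRISPR knockouts of Pyk2 (KO), CRISPR mutants with phenylalanine in place of the autophosphorylated tyrosine of Pyk2 (Y402F), wild-type mice serving as KO controls, and wild-type mice serving as Y402F controls. The study's title concerns contextual fear memory. The labels give neither age nor sex, nor the number of animals behind a library, the number of founders of a line or the part of the gene that was deleted. The p-values set a difference between groups against the spread between libraries. Whether that spread is one between animals is therefore not known, and part of it may be technical.

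GABA-A receptors are chloride channels made of 5 subunits around a pore, and they carry most fast inhibition in the brain. Receptors with a gamma subunit and alpha2 or alpha3 sit mainly at synapses, while receptors with alpha5, or with alpha4 and delta, sit largely outside them and give a steady inhibitory current. In the hippocampus, alpha5 is known for its high level in pyramidal cells, and alpha4 with delta for its level in dentate granule cells. Beta subunits are needed for assembly and carry part of the GABA binding site.

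The subunits also differ in the drugs they respond to. Single codons that set this are shown because they set alpha4 apart from the other alpha members, and beta1 from beta2. Alpha2, alpha3 and alpha5 have a histidine at the benzodiazepine site, and alpha4 has an arginine there, which makes its receptors insensitive to classical benzodiazepines. The stretches below are 27 coding bases from GENCODE M21 transcripts (build GRCm38), 5′ to 3′ on the coding strand, with that codon in capitals. They lie in coding exons at chr5:71014493-71014519 (minus strand, exon 5), chrX:72501156-72501182 (minus strand, exon 5), chr5:71641140-71641166 (minus strand, exon 4) and chr7:57488879-57488905 (minus strand, exon 5).
Gabra2: gataccttctttCACaatgggaaaaag
Gabra3: gataccttcttcCACaatggtaaaaaa
Gabra4: gatactttcttcAGGaatggaaagaaa
Gabra5: gacacgttcttcCACaacggcaagaag

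Gabra2 and Gabra3 differed at 3 of these 27 bases, and Gabra4 differed from the other alpha genes at 6 to 8. In the beta subunits, a residue in the membrane-spanning part sets the response to etomidate and loreclezole. It is a serine in beta1, which responds weakly, and an asparagine in beta2. The next stretches, with that codon in capitals, lie at chr5:72121969-72121995 (plus strand, exon 8) and chr11:42597561-42597587 (plus strand, exon 8) and differed at 4 bases.
Gabrb1: atgaccaccatcAGCactcacctcagg
Gabrb2: atgaccacaatcAACacccacctccgg

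Several members lie in clusters of subunit genes. Gabra2 (70957597 to 71095849), Gabra4 (71569749 to 71658308) and Gabrb1 (71658113 to 72149037) lie on chromosome 5, Gabra5 on chromosome 7 (57407672 to 57510059), Gabrb2 on chromosome 11 (42419757 to 42629028), Gabrd on chromosome 4 (155384980 to 155398112) and Gabra3 on the X chromosome (72432681 to 72656848). Gabra4 and Gabrb1 run in opposite directions and share 46 exonic bases. No source used here says whether reads were counted by strand, so reads in this overlap cannot be assigned to a strand.

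Levels are given as FPKM, a read number set against the length of the gene model and the size of the library, divided here by a scaling factor per library (scaled FPKM). The mutant tables hold 5756180 to 6017219 expected counts per library, which are the authors' estimates of reads per gene, and the members had 93 to 1767 of them. The control tables give FPKM with a confidence range and no counts, so their depth is unknown. Mutant and control tables came from different programs and gene models. In a mutant against its controls, processing and genotype therefore cannot be told apart. KO against Y402F and the wild-type pair are free of this, and a processing difference shared by both lines drops out when their effects are subtracted.

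Ptk2b, the gene of Pyk2, stood at 56.1 and 68.7 scaled FPKM in KO, 353 and 396 in Y402F, 309 and 308 in KO controls, and 323 and 317 in Y402F controls, so the KO libraries were low as their labels say. The markers of CA1, CA2, CA3 and dentate granule cells were all above 0 in all 8 libraries. Choroid plexus markers summed to 42.0 and 56.4 scaled FPKM in KO and 41.8 and 758 in Y402F, against 51.2 and 49.3 in KO controls and 1149 and 1172 in Y402F controls; 5 of the 8 markers were above 0 in every library, and Clic6, Aqp1 and Kcne2 were at 0 in at least 1. By Xist and Ddx3y, library 1 of KO and of Y402F had the female pattern and library 2 of each the male pattern. Both KO controls had the female pattern and both Y402F controls the male pattern. Libraries of the female pattern were unlike in Xist, with 25.5 scaled FPKM in KO library 1 and 40.1 in Y402F library 1, against 3.95 and 3.24 in the KO controls. Ddx3y was 0.0694 and 0.0695 in the KO controls.

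Gabra5 was the highest of the 7 in every library and made up 49.4 to 55.2% of their summed level. In KO its mean was 113 scaled FPKM, followed by Gabrb2 at 27.4, Gabra4 at 22.1, Gabra3 at 22, Gabrd at 11.6, Gabrb1 at 11.2 and Gabra2 at 9.28. Libraries overlapped between Gabrb2 and Gabra4 and between Gabra4 and Gabra3, so the order within this trio was not resolved. Y402F had the same first 4 with the same overlaps, with a mean of 114 for Gabra5 and 27.4 for Gabrb2, and Gabrb1 (12.2), Gabrd (10.9) and Gabra2 (10.6) overlapped below them.

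The wild-type groups ranked the genes differently below Gabra5, with Gabra3 and Gabra4 ahead of Gabrb2. In KO controls the means were 81.8 scaled FPKM for Gabra5, 16.1 for Gabra3, 15.1 for Gabra4, 13.3 for Gabrb2, 11.6 for Gabra2, 10.4 for Gabrb1 and 7.96 for Gabrd. In Y402F controls they were 96.9, 23.6, 18, 16.2, 8.45, 13.3 and 7.08 for the same genes in the same order. Gabra3 and Gabra4 overlapped in KO controls, Gabra2 and Gabrb1 overlapped there too, and Gabra4 and Gabrb2 overlapped in Y402F controls. Gabrd was the lowest of the 7 in both wild-type groups. The ratio of the level of Gabrb2 to that of Gabrb1 was 2.72 and 2.17 in KO and 2.04 and 2.61 in Y402F, against 1.38 and 1.17 in KO controls and 1.23 and 1.19 in Y402F controls. The mutant values rest on models of 7568 bases for Gabrb2 and 1860 for Gabrb1. The longest GENCODE transcripts of these genes have 3989 and 13737 bases. In the ranking and the ratios, gene model and genotype therefore cannot be told apart between mutants and controls.

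**Figure D1:**
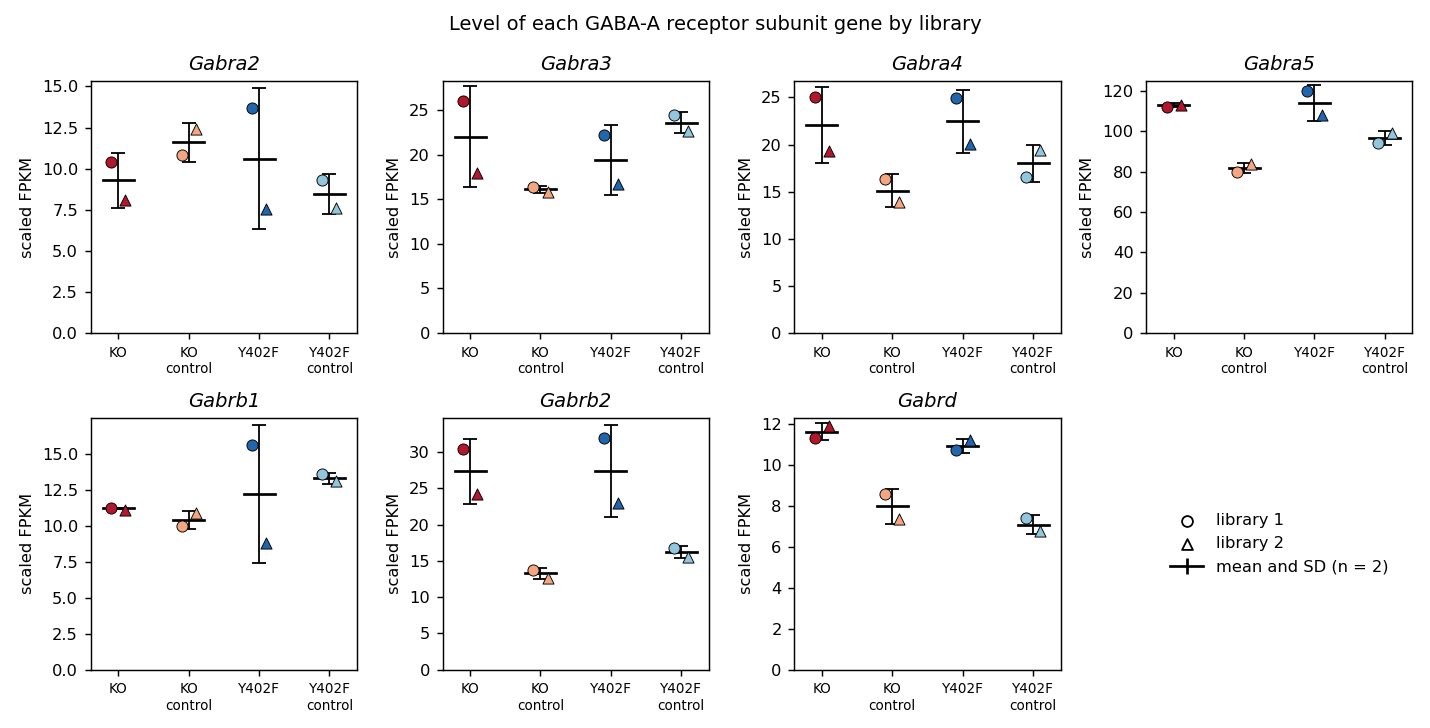
Scaled FPKM (vertical axes, starting at 0) of each of the 7 subunit genes in the libraries of KO, KO control, Y402F and Y402F control mice; circles are library 1, triangles library 2, and bars show the mean and SD of 2 libraries. Gabrb2 and Gabrd stand above the controls in both mutants, and Gabra3 stands above its controls in KO and below them in Y402F.

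In KO hippocampi, the beta2, alpha5, delta and alpha4 genes were higher than in KO controls, and no member was lower at the same threshold. Differences were tested with limma on log2(scaled FPKM + 1), with p-values adjusted by Benjamini-Hochberg over 12973 genes and a call at an adjusted p under 0.05. The 4 calls, all upward, stand against a background in which 16.6% of all genes were called higher, 21.0% lower and 37.6% in either direction. The members' median log2 difference was 0.46, and that of all genes, which the scaling sets near 0, was 0.00. The members were chosen with earlier results of these data known, so their counts and median are no independent test against this background. Libraries of KO and KO controls did not overlap for any of the 7 members, where 71.0% of all genes did not overlap.

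Gabrb2, whose product is a common beta subunit of synaptic receptors, had 30.5 and 24.2 scaled FPKM in KO, against 13.8 and 12.7 in KO controls. Both KO libraries lay well above both controls. Its limma log2 difference was 0.98 (SE 0.18, adjusted p = 0.0032), or 1.98-fold in scaled FPKM + 1 with a 95% interval of 1.49 to 2.62. Gabra5 had 112 and 113 in KO, against 79.9 and 83.6 in KO controls, and the 2 KO libraries lay close together above them. Its log2 difference was 0.46 (SE 0.09, limma adjusted p = 0.00467).

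Of the subunits that form the delta receptors of granule cells, Gabrd had 11.3 and 11.9 scaled FPKM in KO, against 8.58 and 7.35 in KO controls. Its KO libraries were close to each other and higher than both controls, and limma gave 0.49 on the log2 scale (SE 0.14, adjusted p = 0.0256). Gabra4 had 25.0 and 19.3 in KO, against 16.4 and 13.9 in KO controls. KO library 1 was much higher than KO library 2, and the log2 difference was 0.51 (SE 0.17, limma adjusted p = 0.0456). Both calls were lost when KO library 1 or KO control library 2 was left out: Gabra4 then gave 0.33 (adjusted p = 0.255) and 0.40 (0.189), and Gabrd 0.53 (0.0793) and 0.39 (0.134). Gabrd was also not called without KO library 2 (0.46, adjusted p = 0.107), and Gabra4 without KO control library 1 (0.62, 0.0607), Y402F library 1 (0.51, 0.0545) or Y402F library 2 (0.51, 0.0539). Neither was called by limma without scaling (Gabra4 0.38, adjusted p = 0.124; Gabrd 0.36, 0.0746) or in a fit of these 2 groups only (0.51, 0.0666; 0.49, 0.0541), and Gabra4 was not called without a filter on low values (0.51, 0.0689).

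Dentate granule cell markers were higher in KO for 7 of 12 and lower for none, where 16.6% of all genes were called higher. Called genes were 58.3% of this list, beside 37.6% of all genes. The markers summed to 234 and 236 scaled FPKM in KO, against 152 and 149 in KO controls and 204 and 187 in Y402F controls. Their part in the result was not tested, and in bulk tissue more cells of a type and more RNA per cell cannot be told apart. Immediate early genes, which neurons switch on with activity, were higher in KO for 9 of 11, with sums of 260 and 347 in KO, against 92.4 and 96.0 in KO controls; their part was not tested either.

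The other 3 members did not pass the test in KO. Gabra3 had 26.0 and 18 scaled FPKM in KO, against 16.4 and 15.8 in KO controls, which limma put at 0.40 on the log2 scale (SE 0.19, adjusted p = 0.129). KO library 1 was far above the rest, and library 2 only just above the controls. Without KO library 2 the difference was 0.66 and was called (adjusted p = 0.0458), and without KO library 1 it was 0.15 (0.601). Gabra2, the alpha subunit of many axo-axonic synapses on pyramidal cells, had 10.4 and 8.12 in KO, against 10.8 and 12.4 in KO controls (log2 difference -0.30, SE 0.25, adjusted p = 0.386). Gabrb1 had 11.2 and 11.1 in KO, against 10 and 10.9 in KO controls (0.09, SE 0.22, adjusted p = 0.772).

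**Figure D2:**
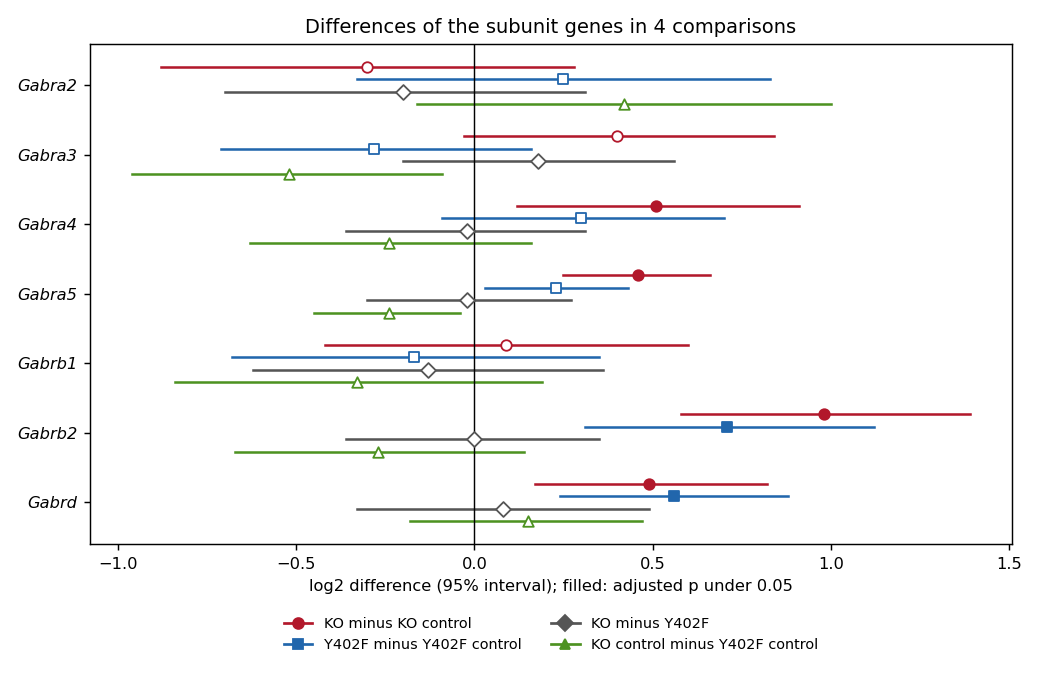
Log2 difference of the 7 subunit genes with its 95% interval (horizontal axis) in 4 comparisons; filled points have an adjusted p under 0.05. KO against its controls has 4 filled points, Y402F against its controls has 2 (Gabrb2 and Gabrd), and KO against Y402F and the wild-type pair have none.

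In Y402F hippocampi, the beta2 and delta genes were higher than in Y402F controls, and the other 5 members did not pass the test. Of all genes, 13.0% were called higher in this comparison, 19.3% lower and 32.3% in either direction, and the members' median log2 difference was 0.25 beside 0.00 for all genes. The choice of the members and the scaling limit this contrast as they do in KO. Libraries did not overlap for 5 of the 7 members, where 68.6% of all genes did not overlap. Gabrb2 had 31.9 and 23.0 scaled FPKM in Y402F, against 16.8 and 15.6 in Y402F controls. Library 1 of Y402F was the higher, and both were above the controls, and limma gave 0.71 on the log2 scale (SE 0.18, adjusted p = 0.0161). Gabrd had 10.7 and 11.2 in Y402F, against 7.40 and 6.77 in Y402F controls, with no overlap and little spread (0.56, SE 0.14, limma adjusted p = 0.0171).

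These 2 calls rested on few libraries. Gabrb2 was not called without Y402F library 1 (0.48, limma adjusted p = 0.0986) or Y402F control library 2 (0.66, 0.0708). Gabrd was not called without Y402F library 1 (0.59, 0.0564), Y402F library 2 (0.53, 0.0721) or Y402F control library 2 (0.51, 0.0849). Dentate granule cell markers were higher for 4 of 12 and lower for none, or 33.3% of the list beside 32.3% of all genes called. They summed to 270 and 256 scaled FPKM in Y402F, against 204 and 187 in Y402F controls. Their part was not tested. Of the immediate early genes, 0 of 11 were higher and 1 was lower, with sums of 218 and 175 in Y402F, against 169 and 174 in Y402F controls.

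Gabra5 had 120 and 108 scaled FPKM in Y402F, against 94.4 and 99.3 in Y402F controls. Both Y402F libraries were above both controls, and the log2 difference was 0.23 (SE 0.09, limma adjusted p = 0.0820). Gabra4 had 24.9 and 20.1 in Y402F, against 16.6 and 19.4 in Y402F controls (0.30, SE 0.17, adjusted p = 0.212), with Y402F library 2 close to the higher control. Gabra3 had 22.2 and 16.7 in Y402F, against 24.4 and 22.7 in Y402F controls, so both Y402F libraries were below both controls (-0.28, SE 0.19, adjusted p = 0.293). Without Y402F library 2 this difference was -0.08 (adjusted p = 0.808), and without Y402F library 1 it was -0.47 (0.170).

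Gabra2 had 13.7 and 7.57 in Y402F, against 9.32 and 7.59 in Y402F controls, and Gabrb1 had 15.6 and 8.82 in Y402F, against 13.6 and 13.1 in Y402F controls. Both genes overlapped with the controls because the Y402F libraries lay far apart. The log2 differences were 0.25 (SE 0.25, limma adjusted p = 0.476) for Gabra2 and -0.17 (SE 0.22, adjusted p = 0.600) for Gabrb1. Gabrb1 turned to -0.54 without Y402F library 1, where it was called (adjusted p = 0.0464), and to 0.21 without Y402F library 2 (0.328).

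The mutant effects were then set against each other, since a call in 1 line and not in the other does not show that the lines differ. The difference of the effects (KO minus its controls, less Y402F minus its controls) was called for 0 of the 7 members by limma, where 0.0308% of all genes were called; 1 member had an unadjusted p under 0.05. That member was Gabra3, at 0.68 (SE 0.27, limma unadjusted p = 0.0336, adjusted p = 0.341), or 0.43 without KO library 1 (adjusted p = 0.644). Gabrb2 stood at 0.27 with a 95% interval of -0.30 to 0.84, Gabra5 at 0.23 (-0.06 to 0.51), Gabra4 at 0.21 (-0.35 to 0.77) and Gabrd at -0.07 (-0.53 to 0.39). These 4 intervals hold 0 and also hold differences as large as several of the effects themselves.

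KO and Y402F were also compared directly on the expected counts, with the quasi-likelihood test of edgeR. None of the 7 members was called, 0 had an unadjusted p under 0.05 with edgeR, DESeq2 or limma, and 0.0150% of 13305 genes were called by edgeR. Gabrb2 had 1282 and 1039 expected counts in KO and 1340 and 1001 in Y402F, an almost equal pair, with a log2 difference of 0.00 and a 95% interval of -0.36 to 0.35. Gabra5 had 1644 and 1704 in KO and 1767 and 1642 in Y402F (-0.02, -0.30 to 0.27).

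Among the other members, Gabrd had 117 and 126 expected counts in KO and 111 and 120 in Y402F (0.08, -0.33 to 0.49), and Gabra2 differed by -0.20 (-0.70 to 0.31), Gabra3 by 0.18 (-0.20 to 0.56), Gabra4 by -0.02 (-0.36 to 0.31) and Gabrb1 by -0.13 (-0.62 to 0.36). On scaled FPKM 1 of 7 members, Gabrd, did not overlap between the mutants, where 25.6% of all genes did not.

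The wild-type groups differed for no member at an adjusted p under 0.05, with 2 members under 0.05 before adjustment and 8.06% of all genes called by limma. Both of these were lower in KO controls than in Y402F controls. Gabra3 had 16.4 and 15.8 scaled FPKM in KO controls and 24.4 and 22.7 in Y402F controls (log2 difference -0.52, SE 0.19, limma adjusted p = 0.123). Gabra5 had 79.9 and 83.6 in KO controls and 94.4 and 99.3 in Y402F controls (-0.24, SE 0.09, adjusted p = 0.124). Libraries of the wild-type groups did not overlap for 6 of 7 members, all but Gabrd, where 59.0% of all genes did not. Of the dentate granule cell markers, 0 of 12 were higher and 4 lower in KO controls than in Y402F controls. Of the immediate early genes, 0 of 11 were higher and 6 lower in the same comparison. The rise of both lists in KO was thus measured against the lower of the wild-type groups. Choroid plexus markers were lower for 5 of 7 and higher for 0. The part of these markers was not tested.

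Within the mutant groups the members split by library. Library 1 exceeded library 2 by 0.51 on the log2 scale in KO and 0.39 in Y402F for Gabra3, by 0.33 and 0.77 for Gabra2, by 0.36 and 0.29 for Gabra4, and by 0.32 and 0.46 for Gabrb2. Gabrb1 did so in Y402F (0.76) with hardly any gap in KO (0.01), and Gabra5 and Gabrd stayed between -0.07 and 0.16 in the mutants. The median over all genes was -0.01 in KO and 0.00 in Y402F, with an SD over genes of 0.34 and 0.36. In the mutants, library number and sex pattern coincide and cannot be told apart.

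For the X-linked Gabra3 the levels are also given by sex pattern, with no test, since each pattern holds 1 library of each mutant and the controls of 1 line. Among libraries of the female pattern it had 26.0 scaled FPKM in KO library 1 and 22.2 in Y402F library 1, against 16.4 and 15.8 in the KO controls. Among those of the male pattern it had 18 in KO library 2 and 16.7 in Y402F library 2, against 24.4 and 22.7 in the Y402F controls. Both mutants were thus above the controls within the female pattern and below them within the male pattern, and the opposite directions of the lines cannot be told apart from the sex pattern of their controls.

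**Figure D3:**
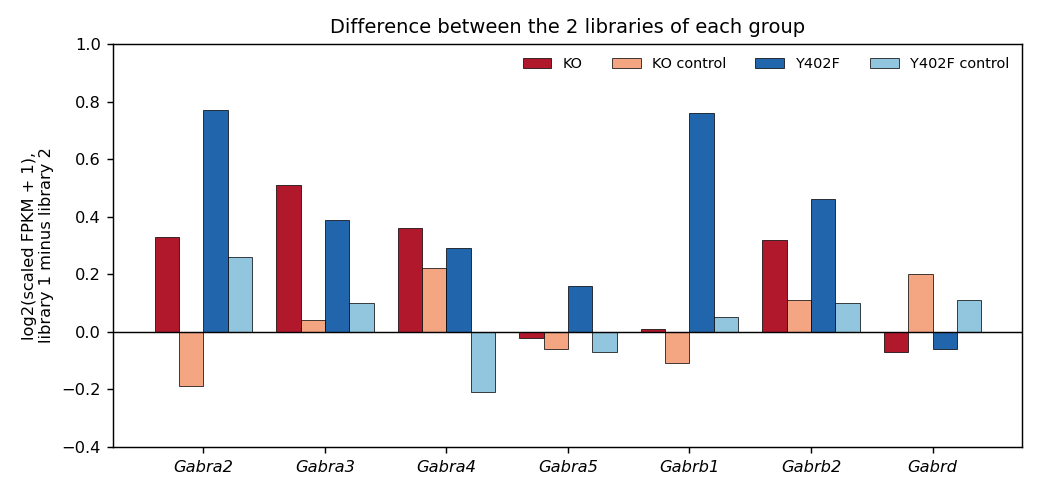
Library 1 minus library 2 on the log2(scaled FPKM + 1) scale (vertical axis) for each subunit gene in the 4 groups. Gabra2, Gabra3, Gabra4 and Gabrb2 are above 0 in both mutants, by 0.29 to 0.77, while Gabrd is at -0.07 in KO and -0.06 in Y402F.

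Because mutant and control values rest on different gene models, the members were also set beside genes of like length. In KO against KO controls the median log2 difference of all genes ran, from the shortest to the longest models of the mutant tables, through -0.24, -0.03, 0.09 and 0.17 over 4 classes of equal size, and the share called higher was 11.6, 13.2, 18.2 and 23.6%. In Y402F against its controls the medians were -0.06, 0.01, 0.03 and 0.03. The wild-type groups, which share their program and gene models, differed by length too: KO controls minus Y402F controls gave 0.21, 0.03, -0.07 and -0.19, and the difference of the effects -0.19, -0.03, 0.06 and 0.16. KO controls enter the KO comparison and the wild-type comparison with opposite sign, so these 2 opposite trends are not independent. KO minus Y402F, which uses no controls, gave medians of 0.04, 0.01, -0.01 and -0.03. Gabrb2 had a model of 7568 bases, in the longest class, while its longest GENCODE transcript has 3989; for the other members these lengths were 2392 and 5852 (Gabra2), 3727 and 3662 (Gabra3), 4123 and 4108 (Gabra4), 2674 and 2671 (Gabra5), 1860 and 13737 (Gabrb1), and 1896 and 2707 (Gabrd). The part of model length in the members' differences was not tested.

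**Figure D4:**
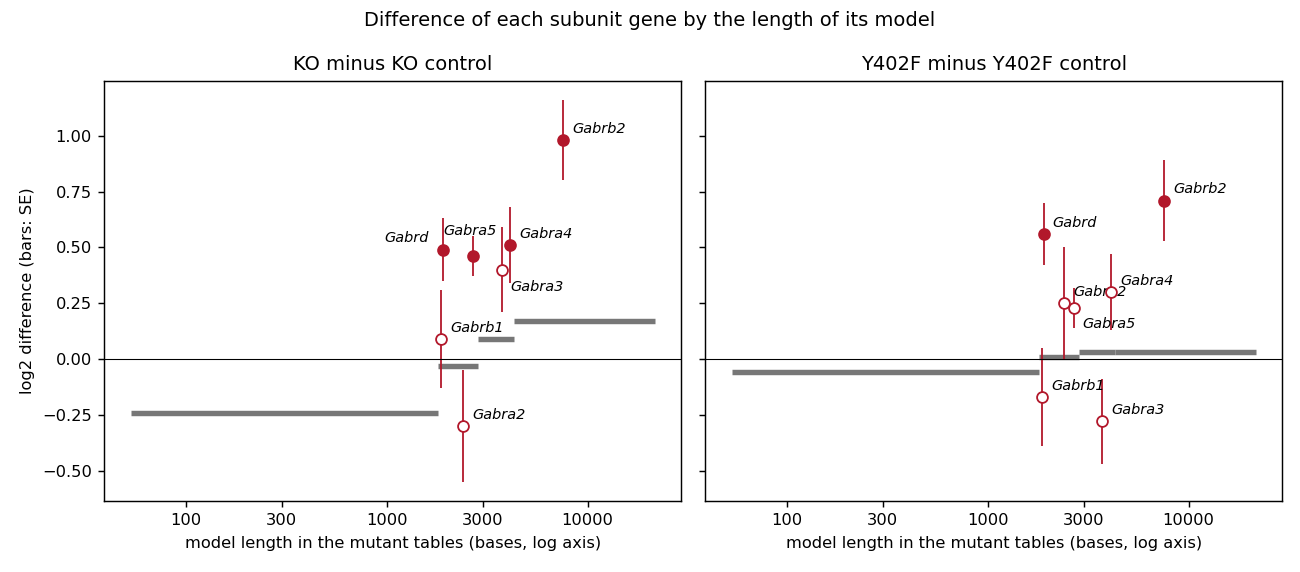
Log2 difference from controls (vertical axis, bars are SE) of the 7 subunit genes against the length of their model in the mutant tables (log axis), for KO and for Y402F; filled points have an adjusted p under 0.05. Grey bars are medians of all genes in 4 length classes, from -0.24 to 0.17 in KO, each drawn over the lengths of its class; Gabrb2 lies above the grey bar of its class in both panels.

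Among subunit genes outside the 7, Gabrg1 averaged 2.18 scaled FPKM in KO and 2.30 in Y402F, against 2.28 in KO controls and 2.14 in Y402F controls. Gabrg3 averaged 2.33 in KO and 2.22 in Y402F, against 2.24 in KO controls and 3.51 in Y402F controls. Neither was called by limma in KO or Y402F, with log2 differences of -0.05 and 0.07 for Gabrg1 and 0.04 and -0.52 for Gabrg3. Gabre, Gabrq, Gabrr1 and Gabrr2 averaged under 1 scaled FPKM and were not tested.

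The wider GABA machinery was followed through 4 lists of genes. Rises and falls are given for a mutant against its controls, where processing and genotype cannot be told apart. Of 23 scaffold and trafficking genes, 11 were higher and 3 lower in KO (median 0.30), and 6 were higher and 2 lower in Y402F (median 0.15). Called genes were 60.9% of the list in KO, where 37.6% of all genes were called, and 34.8% in Y402F, close to the 32.3% of all genes. Gabarapl2, of the family that moves receptors along the secretory route, had 103 and 114 scaled FPKM in KO and 108 and 117 in Y402F, against 61.7 and 63.2 in KO controls and 42.6 and 37.7 in Y402F controls. It rose by 0.79 (SE 0.10, limma adjusted p = 0.000593) in KO and 1.47 (SE 0.10, adjusted p = 2.32e-05) in Y402F. Its relative Gabarap fell by 0.67 in KO (adjusted p = 0.00107) and by 0.42 in Y402F (0.0116), and the palmitoyltransferase gene Zdhhc3 fell by 1.05 in KO (0.00137) and by 0.89 in Y402F (0.00375). The adhesion gene Nlgn2 of inhibitory synapses rose by 0.47 in KO (0.00447) and stood at 0.27 in Y402F (0.0508). Nsf, the membrane fusion ATPase, rose by 0.35 in KO (limma adjusted p = 0.0107) and by 0.51 in Y402F (0.00217), and Iqsec3, an exchange factor of inhibitory synapses, by 0.30 (0.0435) and 0.52 (0.0049). In KO, Nsf was not called without KO library 2 or KO control library 2 (adjusted p up to 0.0803 over all alternatives), and Iqsec3 lost its call when any 1 library of KO or of either control group was left out (up to 0.232). Gabarap was not called in Y402F without Y402F control library 1 (0.0623).

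Of 10 tested genes for GABA synthesis, transport and breakdown, 5 were higher and 1 lower in KO (median 0.21), and 3 were higher and 1 lower in Y402F (median 0.27), which is 60% and 40% of the list beside 37.6% and 32.3% of all genes. By limma, Abat, which breaks GABA down, rose by 0.33 in KO (adjusted p = 0.0258) and 0.32 in Y402F (0.0319). The glutamine carrier gene Slc38a1 rose by 0.59 (0.00421), the breakdown enzyme gene Aldh5a1 by 0.46 (0.0196) and the synthesis enzyme gene Gad2 by 0.51 (0.0325) in KO. In Y402F the GABA uptake gene Slc6a11 rose by 0.43 (0.0218), and Gad1, the other synthesis enzyme, was lower (-0.40, 0.0122), as it was in KO (-0.29, 0.0375). In KO, Gad1 lost its call when any 1 library of KO or of either control group was left out, and with quantile normalization it stood at 0.01 (adjusted p = 0.929). Without KO library 1 or KO control library 2, Aldh5a1, Abat and Gad2 were not called in KO, nor was Aldh5a1 without KO library 2 or Abat and Gad2 without KO control library 1; over all alternatives their adjusted p reached 0.108, 0.155 and 0.192. In Y402F, calls were lost without Y402F control library 2 for Gad1, Slc6a11 and Abat, without Y402F control library 1 for Slc6a11 and Abat, without Y402F library 2 for Gad1 and Slc6a11, and without Y402F library 1 for Abat, with an adjusted p of up to 0.0791 for Gad1, 0.102 for Slc6a11 and 0.209 for Abat. Interneuron markers were higher for 1 and lower for 5 of 16 in KO, and higher for 0 and lower for 4 of 16 in Y402F. These are 37.5% and 25% of the tested markers, no more than the 37.6% and 32.3% of all genes called. All 17 markers of that list were above 0 in every library, and their sums were 1606 and 1695 scaled FPKM in KO and 1406 and 1527 in Y402F, against 2060 and 2037 in KO controls and 1657 and 1617 in Y402F controls; their part was not tested.

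The GABA-B receptor genes split in both lines against their controls, where processing and genotype cannot be told apart. Gabbr1 had 203 and 213 scaled FPKM in KO and 195 and 201 in Y402F, against 336 and 327 in KO controls and 313 and 322 in Y402F controls, and was lower by limma in KO (-0.67, adjusted p = 0.000206) and in Y402F (-0.68, 0.000201). Its obligate partner Gabbr2 rose by 0.56 in KO (0.00395) and 0.39 in Y402F (0.0213), and the auxiliary subunit gene Kctd12 by 0.49 in KO (0.0229). Gabbr2 was not called in Y402F without Y402F library 1 or either of its controls (adjusted p up to 0.116 over all alternatives), nor Kctd12 in KO without KO library 1 or either of its controls (up to 0.14). In all, 2 of 6 genes were higher and 1 lower in KO, and 1 higher and 1 lower in Y402F, which is 50% and 33.3% of the list beside 37.6% and 32.3% of all genes. For Gabbr1 the difference of the effects was 0.01 (SE 0.10), and KO minus Y402F was 0.07 (SE 0.11).

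Of 11 genes that set the chloride gradient, 2 were higher and 2 lower in KO (median -0.43), and 0 were higher and 3 lower in Y402F (median -0.25). These are 36.4% and 27.3% of the list, no more than the 37.6% and 32.3% of all genes called. The kinase gene Wnk1 was lower by limma in KO (-1.5, adjusted p = 0.000238) and in Y402F (-1.74, 0.000112), as was Stk39, the kinase downstream of it (-0.67, 0.00723 in KO; -1.60, 8.41e-05 in Y402F). The chloride importer gene Slc12a2 rose by 0.57 in KO (0.0186), while Wnk2 was lower in Y402F (-0.51, 0.033). Calls were lost for Stk39 in KO without KO library 2 (adjusted p = 0.0519), for Slc12a2 without KO library 1 or either KO control (up to 0.107 over all alternatives), and for Wnk2 when any 1 of the Y402F or Y402F control libraries was left out (up to 0.145). In the difference of the effects and in KO against Y402F, 0 genes of these 4 lists were called.

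**Figure D5:**
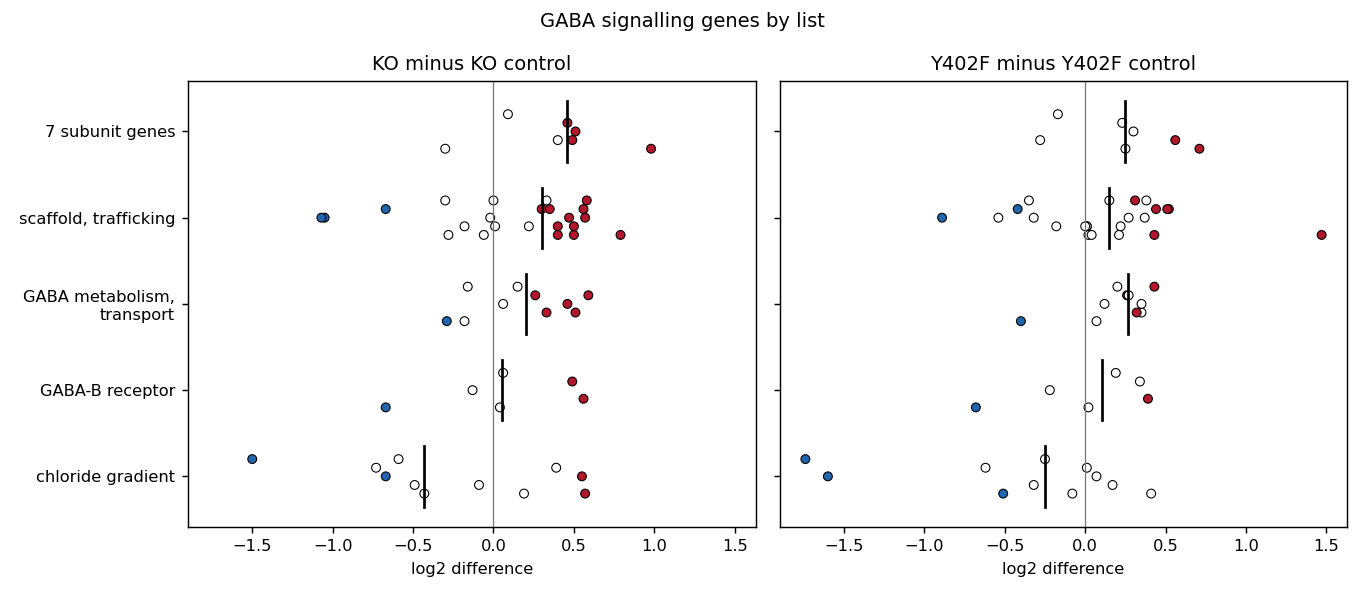
Log2 difference from controls (horizontal axis) of each tested gene of 5 lists, for KO and for Y402F; red points were called higher, blue points lower, open points not called, and the vertical bar is the list's median. The 7 subunit genes have medians of 0.46 in KO and 0.25 in Y402F, and the chloride gradient genes -0.43 and -0.25.

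Across the 8 libraries some members followed each other more closely than others. On log2(scaled FPKM + 1), Pearson's r was 0.93 between Gabra5 and Gabrb2, 0.92 between Gabra4 and Gabrb2, 0.87 between Gabra4 and Gabra5 and 0.84 between Gabrb2 and Gabrd, while Gabra2 had r between -0.14 and 0.38 with the other members. These points share their group and their kind of table, so the values describe the libraries only. Of 12330 genes compared, those closest to Gabrb2 were Akap5 and Npm1 (r 0.996 and 0.994), to Gabra5 Usp24, Ugcg and Nav2 (0.991 to 0.995), to Gabrd Prmt7, Txnl4a and Rrnad1 (0.991 to 0.992), and to Gabra4 Gnal, Cdkn1b and Rnf130 (0.983 to 0.987). For Gabra3 they were Ebag9, Ttc14 and Pde1a (0.950 to 0.963), for Gabrb1 Taf7, Rnf138 and Gpr161 (0.945 to 0.975), and for Gabra2 Pcmtd1, Dlx6os1 and Prrg1 (0.895 to 0.955).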

How the data were processed

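The mutant tables deposited by the authors hold, per Entrez gene, expected counts, FPKM and the transcript length, and the authors' deposited control tables hold FPKM with confidence bounds per Ensembl gene. Per the submitters' processing notes, reads of every sample involved Bowtie 1 and HISAT with build mm9, and the controls also Cufflinks; no source used here names the program behind the expected counts. The positions in the control tables match GENCODE M21 on GRCm38, which is used here.

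Of 18022 genes in the mutant tables, 17625 were matched by symbol and 80 by the Entrez table of GENCODE, and 53 control rows were summed into another locus of the same gene. Median-of-ratios factors from 11462 genes scaled the FPKM. Genes averaging 1 FPKM or more were tested with limma 3.58.1 (trend, 4 groups, 4 residual degrees of freedom) on log2(scaled FPKM + 1), whose differences understate changes of low genes. KO and Y402F were compared with edgeR 4.0.16 (TMM, 2 residual degrees of freedom) on expected counts rounded to whole numbers, with DESeq2 1.42.0 as an alternative. Tests were tried on simulated data. Software was R 4.3.3 and Python 3.11.15, with numpy 2.4.6, pandas 2.3.3 and matplotlib 3.10.9.

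The members and lists were chosen with earlier results of these data known. All members are named, and of each list the called genes up to the 4 with the smallest adjusted p, of which the text prints a part, with their value in the other line where it was called too. Proteins of the members were to be compared and are not analysed here; coding bases are shown instead. Some other genes, among them other subunits, are not reported here.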

Additional observations from a re-analysis of the deposited data

Results flagged for a closer look

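Gabra3 is the result to look at again. Both KO libraries (26.0 and 18 scaled FPKM) lay above both KO controls (16.4 and 15.8), while both Y402F libraries (22.2 and 16.7) lay below both Y402F controls (24.4 and 22.7). The difference of the effects was 0.68 (SE 0.27, limma adjusted p = 0.341) and ranged from 0.43 (without KO library 1, adjusted p = 0.644) to 0.94 (without KO library 2, 0.272) with 1 library left out; it was 0.49 without Y402F library 2 (0.670). With a term for the sex pattern it was 1.13 (0.0477), but that term rests on library 1 against library 2 of the mutants alone. The mutants themselves differed by 0.18 (SE 0.18, edgeR adjusted p = 0.999) and the wild-type groups by -0.52 (SE 0.19, limma adjusted p = 0.123). Line and sex pattern of the controls cannot be told apart.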

How the results depend on the processing

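Of 476 values of single members under the alternatives, 430 kept their direction and their side of the threshold, 18 lost a call, 8 gained one and 20 changed sign. Gabra5 and Gabrb2 were called higher in KO in all 15 alternatives, Gabrd in 10 and Gabra4 in 7; in Y402F, Gabrb2 was called in 13 of 15 and Gabrd in 12. The count of members called in KO, 4 as reported, was 2 without scaling, 2 in a fit of the compared groups only and 2 to 4 with 1 library left out. It was 5 with the sex term. The count in Y402F, 2 as reported, was 0 to 2 with 1 library left out (the 1 without Y402F library 1 was a lower call, Gabrb1), 3 with quantile normalization and 3 with the sex term (2 higher, 1 lower). With a term for the sex pattern, 2 members were lower in KO controls than in Y402F controls (Gabra3 -0.97, Gabrb2 -0.66), and 1 was called in the difference of effects. The causes were not tested. All alternatives start from the same deposited values, so none of them changes the program or gene model that separates mutants from controls. A call kept in all of them therefore says nothing on that difference.

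Sign changes outside left-out libraries were Gabrb1 in KO without scaling (-0.04), Gabra2 with the sex term in Y402F (-0.02), between the wild-type groups (-0.13) and in the difference of effects (0.00), and Gabrb2 in KO against Y402F with RLE factors, the replicate block or limma (0.00 each). With 1 library left out, ranges that crossed 0 were -0.14 to 0.64 for Gabra2 and -0.54 to 0.21 for Gabrb1 in Y402F, -0.12 to 0.64 for Gabrb1 and -0.17 to 0.03 for Gabrd in the difference of effects, and, in KO against Y402F, -0.55 to 0.29 for Gabra2, -0.12 to 0.43 for Gabra3, -0.23 to 0.16 for Gabra4, -0.08 to 0.06 for Gabra5, -0.47 to 0.34 for Gabrb1 and -0.21 to 0.25 for Gabrb2. A lone library left in a group is assumed to vary like the other groups.

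Without scaling the median of all genes was -0.12 in each mutant against its controls. Genes called higher and lower numbered 2160 and 2722 in KO as reported, 1400 and 3329 without scaling and 2918 and 2210 with quantile normalization; in Y402F they numbered 1686 and 2506, 987 and 3137, and 2730 and 2155. Over all genes, calls fell to 3100 in KO without KO library 1, and calls between the wild-type groups, 1046 as reported, were 170 to 882 with 1 library left out, 514 without a filter and 325 in a fit of the compared groups. Of 35 called differences of genes outside the members, 16 were called in every alternative and 1 changed sign (Gad1 in KO, 0.01 with quantile normalization). Scaffold and trafficking genes called higher ranged from 5 to 14 in KO and 3 to 11 in Y402F. Genes of GABA synthesis, transport and breakdown ranged from 1 to 7 in KO and 0 to 7 in Y402F, and chloride gradient genes called lower from 1 to 4 and 2 to 3. The difference of effects had 4 calls as reported, 6 to 15 with 1 library left out, 7 without a filter and 138 with the sex term; KO against Y402F had 2 as reported, 18 to 42 with 1 left out, 1 with DESeq2, 1 without a filter and 5 with limma.

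The labels do not say that replicate numbers pair the libraries, and gene-wise deviations of same-numbered libraries correlated at -0.03 to 0.20. With the number as a block, 4 members were called in KO, 2 in Y402F and 0 in the other comparisons, and 4 genes overall in KO against Y402F. The pairing is not established, and the number of animals behind each library limits every p-value. The comparison of the members' proteins was not run.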
